A study of Mus musculus with 3 samples.

Results

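The transcripts described here encode the NF-kB transcription factor family and the IkB proteins that bind it, in CD4+ T cells cultured with different cytokines. The list held 10 genes, chosen by name: the subunit genes Nfkb1, Nfkb2, Rel, Rela and Relb, the genes Nfkbia, Nfkbib and Nfkbie of the classical inhibitors, and the genes Bcl3 and Nfkbiz of nuclear IkB proteins. Earlier results of these data, among them the differences of Bcl3, were known when the list was chosen. A probe set that the array annotation assigned to exactly 1 gene symbol was found for 9 of the 10, out of 19935 genes in all, and Nfkb1 was not analysed here. The cells were naive CD4+ T cells of wild type C57BL/6 mice 8 weeks of age. There were 3 cultures: a vehicle control in medium, IL-21, and IL-6 together with TGFb1. There was 1 array per culture and 3 in all, hence no replicates and no test. Each value below describes the arrays measured, and time in culture, cytokine doses and any stimulation through the T cell receptor are not given in the labels.

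NF-kB proteins are dimers of Rel homology domain subunits. In an unstimulated cell the classical IkB proteins hold many of these dimers in the cytoplasm, and signals such as T cell receptor engagement activate the IkB kinase complex, which marks IkB for destruction and frees the dimers to enter the nucleus. A second route processes the Nfkb2 precursor and releases dimers that contain RelB. Bcl3 and the protein of Nfkbiz also carry ankyrin repeats, but they act in the nucleus on dimers of the p50 or p52 subunit and can raise or lower transcription. In T cells the family drives expression of cytokine, survival and activation genes, and several of its own members are among its targets. Much of this control acts on protein stability and location, which an mRNA measurement does not read.

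The sequences before the annotated gene starts are given for 4 genes: Bcl3 and Rel, whose intensities differed most between the arrays, and Nfkbia and Nfkbie, classical IkB genes whose intensities differed least. They come from RefSeq (build GRCm38.p6), run 5′ to 3′ on the gene's strand and end just before the start. Capitals mark matches on either strand to the NF-kB consensus motif, the DNA element to which the family binds, or to the AP-1 motif TGANTCA, the element of the Fos and Jun proteins. The STAT motif TTCNNNGAA, the element bound by STAT proteins that act downstream of the IL-21 and IL-6 receptors, was searched too. For Bcl3, on the minus strand at chr7:19822825-19823005, the 69 bases nearest the start were left out because the annotated gene extends over them. The Rel window lies on the minus strand at chr11:23770970-23771219, that of Nfkbia on the minus strand at chr12:55492648-55492897 and that of Nfkbie on the plus strand at chr17:45555450-45555699.
Bcl3: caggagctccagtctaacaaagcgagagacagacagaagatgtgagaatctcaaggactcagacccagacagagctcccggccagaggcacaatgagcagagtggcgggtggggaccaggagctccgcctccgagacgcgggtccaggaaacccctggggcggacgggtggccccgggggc
Rel: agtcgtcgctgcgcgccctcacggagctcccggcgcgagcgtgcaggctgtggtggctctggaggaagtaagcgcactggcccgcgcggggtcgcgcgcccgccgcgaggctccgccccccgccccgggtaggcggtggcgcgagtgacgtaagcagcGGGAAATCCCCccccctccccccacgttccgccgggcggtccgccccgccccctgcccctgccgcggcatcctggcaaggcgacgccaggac
Nfkbia: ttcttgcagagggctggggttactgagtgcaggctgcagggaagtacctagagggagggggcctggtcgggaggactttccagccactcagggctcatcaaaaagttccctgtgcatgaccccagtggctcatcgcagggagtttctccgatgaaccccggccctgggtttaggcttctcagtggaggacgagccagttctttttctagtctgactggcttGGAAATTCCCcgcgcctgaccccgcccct
Nfkbie: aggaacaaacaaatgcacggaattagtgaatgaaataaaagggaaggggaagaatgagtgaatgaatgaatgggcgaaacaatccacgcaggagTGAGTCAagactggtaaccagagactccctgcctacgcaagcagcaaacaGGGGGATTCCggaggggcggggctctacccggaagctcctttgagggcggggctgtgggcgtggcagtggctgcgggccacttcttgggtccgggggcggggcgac

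Windows of 250 bases before the start were available for 7 of the 10 genes and 9 start sites, 3 of them of Nfkb2. The NF-kB consensus motif was found in 6 of these 9 windows, those of Rel, Nfkbia, Nfkbie and the 3 starts of Nfkb2. Counted by gene, this was 4 of 7. The 3 starts of Nfkb2 did not lie at the beginning of the annotated gene, nor did those of Rela and Bcl3. The windows of Nfkb2 starts 2 and 3 also overlap, so the 6 windows are not independent. Of 32851 windows of the same length before all annotated starts, 7.25% held the NF-kB motif, 7.02% the STAT motif and 6.75% the AP-1 motif. In Rel the match spanned bases 92 to 82 before the start as a pair of overlapping matches, in Nfkbia bases 29 to 20, and in Nfkbie bases 106 to 97. The AP-1 motif was found in Nfkbie, at bases 156 to 150, and before the second start of Nfkb2, and the STAT motif before the first start of Nfkb2 alone among the 9 windows. The full 250-base windows of Bcl3, Rela and Nfkbib held none of these letters, which says nothing of elements elsewhere. The family's windows were also richer in G and C than the rest, with a median of 64.8% against 52.4%. A match is a description of the letters, and binding was not measured.

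**Figure D1:**
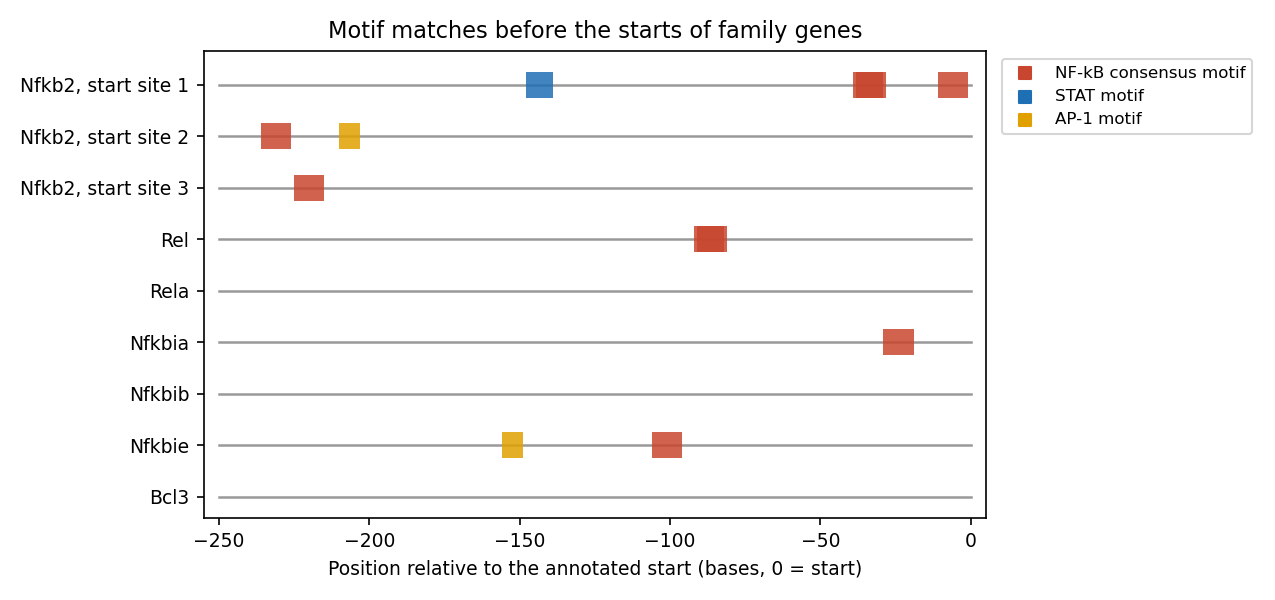
Positions of motif matches in the 250 bases before each annotated start (horizontal axis, bases relative to the start at 0). Each line is a start site and each coloured block a match on either strand. NF-kB consensus matches (red) lie before Rel, Nfkbia, Nfkbie and all 3 Nfkb2 starts, and the lines of Rela, Nfkbib and Bcl3 carry no block.

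Linear probe set intensities were deposited, and the array medians were 191 (medium), 182 (IL-21) and 188 (IL-6 with TGFb1). Differences are given as log2(intensity + 1) on one array minus the other, so that 1 stands for 2-fold. A gene was compared if its highest intensity reached the median of all values, 187, which kept 11003 genes and all 9 family members measured. Each member had 1 probe set, so none could be checked against another of the same gene. For scale, the 474 other genes with exactly 2 bright probe sets gave differences that were typically 0.07 apart for IL-21 minus medium (median), with 95% less than 0.41 apart. For IL-6 with TGFb1 minus medium these values were 0.07 and 0.37, and between the treated arrays 0.06 and 0.35. This scale is the gap between probe sets of the same gene within a single array pair, and its cause was not tested. It leaves out variation from culture to culture. All 5 measured T cell markers (Cd3e, Cd3d, Cd3g, Cd4 and Cd28) were bright on every array. Of the 16 measured B cell, myeloid, dendritic and NK cell markers, 13 were below the brightness limit on all arrays. The 3 above it were Cd79b, H2-Aa and Cd74, and of the CD8 markers Cd8b1 was bright and Cd8a was not. Cd8b1 had intensities of 810 with medium, 731 with IL-21 and 616 under IL-6 plus TGFb1, with differences from medium of -0.15 and -0.39. The summed intensity of the 16 markers was 3065 with medium, 3031 with IL-21 and 2926 under IL-6 plus TGFb1, and Cd74 alone made up 1230, 1071 and 961.0 of it. Other markers moved the other way: Klrd1, an NK cell receptor gene below the limit on all arrays, had intensities of 66.0, 98.1 and 173 in the same order, and H2-Aa was 0.40 higher with IL-21 than with medium. The part of such cells in the differences below was not tested.

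In this family Bcl3 stood far above the other members in its difference from medium, in both treated cultures. Bcl3 encodes a nuclear IkB protein that joins p50 or p52 dimers on DNA. Its intensity was 1303 with medium, 2828 with IL-21 and 2819.9 under IL-6 plus TGFb1. The medium array was low and the treated arrays were close to each other. The fold over medium was 2.17 with IL-21 and 2.16 under IL-6 plus TGFb1, and the log2 differences were 1.12 and 1.11. Of all genes compared, 38 had a difference at least as high in IL-21 minus medium and 66 in IL-6 with TGFb1 minus medium, Bcl3 included. Both differences subtract the same medium array, so they are not separate measurements of Bcl3 against control. The direct difference between the treated arrays, which leaves medium out, was 0.00. In RNA from a whole culture, a change in the share of cells that express a gene and a change in RNA per cell cannot be told apart.

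The count of members past 2-fold was 1 of 9 on the higher side and 0 of 9 on the lower side against medium, for each treated culture, and that member was Bcl3. Among all genes compared, 0.482% passed this limit on the higher side and 0.109% on the lower side in the IL-21 comparison. For IL-6 with TGFb1 the shares were 0.673% and 0.364%. At a limit of 1.5-fold either way the family count was still 1 of 9 in each, beside 2.54% of all genes with IL-21 and 3.61% under IL-6 plus TGFb1. The members were chosen with the difference of Bcl3 already known, so these counts are no independent support. Between the treated arrays 0 of 9 members were 2-fold apart, against 0.464% of all genes either way. The median difference of the 9 members was 0.00 with IL-21 and 0.04 under IL-6 plus TGFb1, beside medians of 0.04 and 0.02 over all genes compared. Without Bcl3 the medians were -0.01 and 0.02. Of the 9 members, 7 were within 0.25 of medium in each treated culture, a range that held 80.6% of all genes with IL-21 and 80.3% under IL-6 plus TGFb1.

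**Figure D2:**
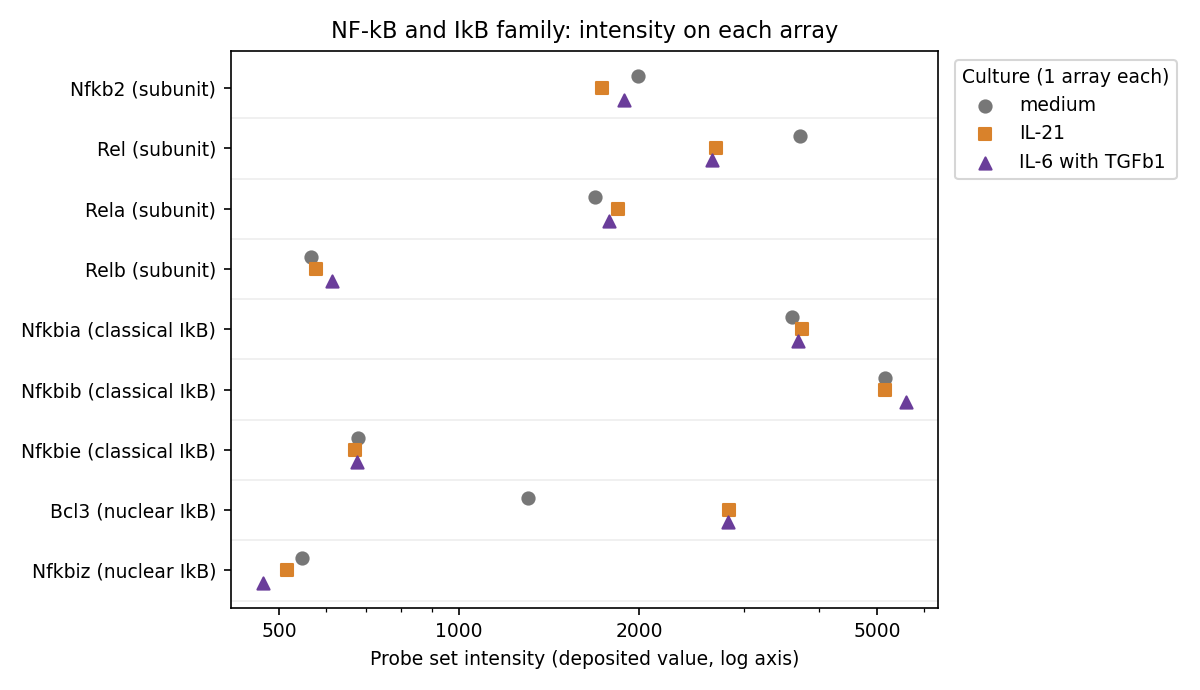
Intensity of each of the 9 family members (horizontal log axis, deposited units) on the arrays of medium (circles), IL-21 (squares) and IL-6 with TGFb1 (triangles), 1 array each, with no error bars because there are no replicates. Bcl3 moves from 1303 with medium to 2828 and 2819.9, Rel lies lower on both treated arrays than on the medium array, and the symbols of most other members lie close together. Positions are to be read within a gene, since brightness also depends on the probes.

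Among the subunits, Rel had the largest difference. Rel encodes c-Rel, the subunit most tied to lymphocyte activation and to transcription of Il2. Its intensity was 3719 with medium, 2691 with IL-21 and 2647 under IL-6 plus TGFb1. It was 1.38-fold lower with IL-21 (-0.47) and 1.40-fold lower under IL-6 plus TGFb1 (-0.49), which is less than 2-fold. These differences lay outside the central 95% of genes compared, which ran from -0.35 to 0.54 with IL-21 and from -0.35 to 0.59 under IL-6 plus TGFb1. Only 1.09% of genes compared had a difference as low or lower with IL-21, and 1.29% under IL-6 plus TGFb1. As with Bcl3, the treated arrays were alike, with a direct difference of 0.02. Bcl3 and Rel thus lay on opposite sides of medium on both treated arrays, and the other 7 members were inside the central range in every comparison.

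The remaining measured subunits differed little. Rela encodes p65, the main activating partner of p50. Its intensity was 1685 with medium, 1847 with IL-21 and 1779.5 under IL-6 plus TGFb1, with differences from medium of 0.13 and 0.08. Nfkb2 encodes p100, the precursor of p52. Its intensity was 1996 with medium, 1735 with IL-21 and 1890.4 under IL-6 plus TGFb1, with differences of -0.20 and -0.08. The IL-21 array was thus the lowest for Nfkb2, and 8.04% of genes compared had a difference as low or lower. Relb, whose protein pairs with p52 in the alternative route, had an intensity of 567 with medium, 576 with IL-21 and 614 under IL-6 plus TGFb1. Its differences were 0.02 and 0.12, which became -0.11 and 0.02 after quantile normalization, so no direction is given for Relb.

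The 3 classical inhibitors were all within 0.25 in the 3 comparisons, a range that also held 80.6%, 80.3% and 91.4% of all genes compared. Nfkbia encodes IkB alpha, which the family itself induces and which ends an NF-kB response. Its intensity was 3601 with medium, 3750.0 with IL-21 and 3695 under IL-6 plus TGFb1, with differences of 0.06 and 0.04. Nfkbib encodes IkB beta, an inhibitor that is degraded and made again more slowly. Its intensity was 5158 with medium, 5163 with IL-21 and 5598 under IL-6 plus TGFb1, with differences of 0.00 and 0.12. Nfkbie encodes IkB epsilon, another inhibitor that the family induces. Its intensity was 678 with medium, 670.0 with IL-21 and 676 under IL-6 plus TGFb1, the narrowest range of the 9 members, with differences of -0.02 and 0.00. After quantile normalization these were -0.13 and -0.09. With 1 array per culture these small differences do not show that the levels were equal.

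Nfkbiz, the other nuclear IkB gene, was not alike with Bcl3. Its protein, IkB zeta, is a coactivator of a subset of NF-kB target genes and has been linked to Th17 development. Its intensity was 546 with medium, 516 with IL-21 and 470.0 under IL-6 plus TGFb1. The value was highest with medium, and the differences were -0.08 and -0.22. The first ranged from -0.21 to -0.02 over the other settings and the second from -0.31 to -0.19. Of genes compared, 7.06% were as low or lower under IL-6 plus TGFb1. Further IkB-like genes were measured too. Nfkbid, which encodes the nuclear protein IkBNS, had intensities of 1666, 1480.0 and 1671 with medium, IL-21 and IL-6 with TGFb1, and its differences from medium were -0.17 and 0.00. Nfkbil1 had differences of -0.06 and -0.04. The first ranged from -0.15 to 0.01 over the other settings and the second from -0.11 to -0.01. No direction is therefore given for Nfkbil1 with IL-21. Ankrd42 was below the brightness limit on all arrays.

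**Figure D3:**
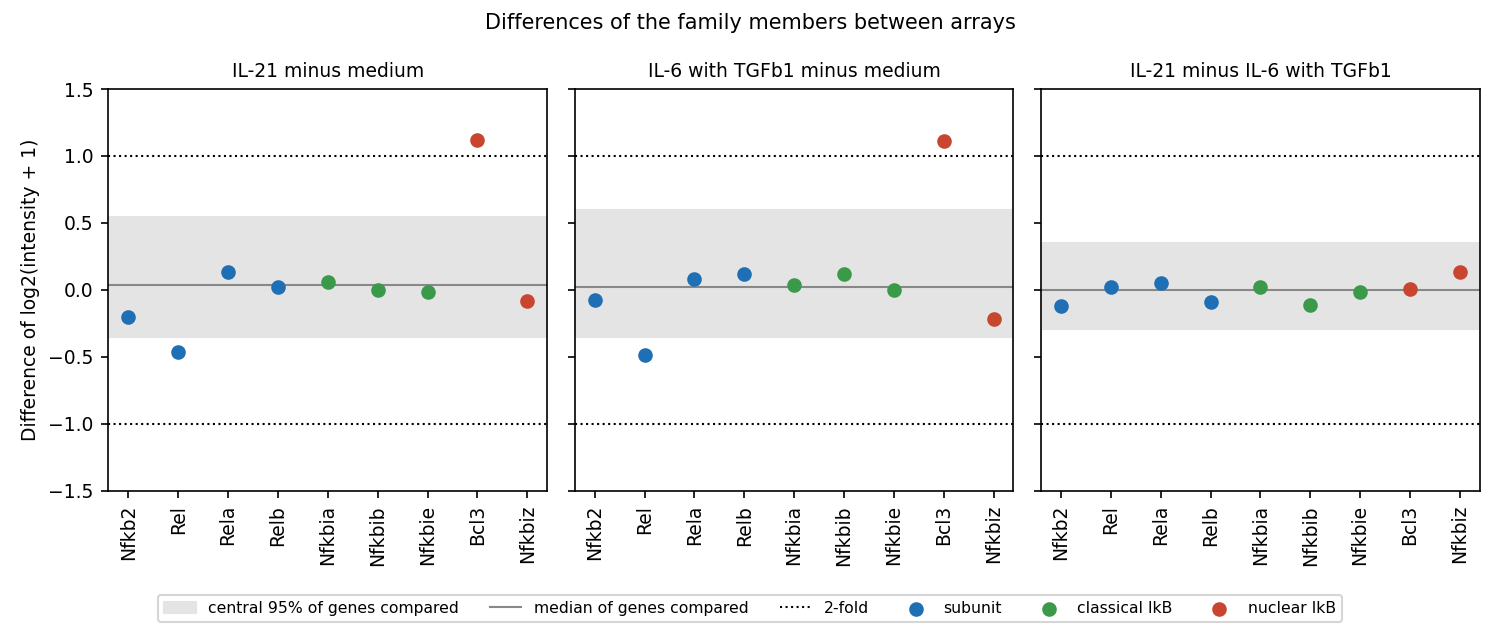
Difference of log2(intensity + 1) for each family member (vertical axis) in the 3 comparisons, coloured by role. The grey band holds the central 95% of the 11003 genes compared, the grey line is their median and the dotted lines mark 2-fold. Bcl3 lies above the 2-fold line at 1.12 and 1.11 and Rel below the band at -0.47 and -0.49 against medium, while between the treated arrays all 9 members lie inside the band.

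Between the treated arrays the family differed least. The 9 differences of IL-21 minus IL-6 with TGFb1 ran from -0.12 to 0.13 with a median of 0.00, and all 9 were within 0.25, as were 91.4% of all genes compared. The highest was that of Nfkbiz (0.13) and the lowest were those of Nfkb2 and Nfkbib, both -0.12. The exchange of IL-21 for IL-6 and the presence of TGFb1 cannot be told apart here.

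The genes whose profile over the 3 arrays was nearest to that of Bcl3, the member with the widest range, were found from the log2 values after each gene was centred on its own mean. The 5 with the smallest distance among genes compared were Prnp (0.0412), Fosl2 (0.0495), Rbm12b2 (0.0873), Castor1 (0.0891) and Bmpr1a (0.103). Prnp encodes the prion protein, and its intensity was 279 with medium, 608 with IL-21 and 627 under IL-6 plus TGFb1. Fosl2 encodes an AP-1 subunit of the Fos family, and its intensity was 481 with medium, 1018 with IL-21 and 1066 under IL-6 plus TGFb1. With 3 arrays, a gene that is low on the medium array by the same amount has this profile, so the likeness is a description.

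The signalling part of the pathway was described with a list of 22 genes, called upstream genes here. They encode the IkB kinase complex, kinases linked to it, and the adaptor and TRAF proteins that link receptors to it. Of the 22 genes, 18 were measured and compared, and 0 were 2-fold higher or lower in any of the 3 comparisons. Over all genes the highest such share on either side was 0.673%, so a count of 0 among 18 is near the background. The list median was 0.14 with IL-21 and 0.18 under IL-6 plus TGFb1, and 14 of 18 genes were above 0 in each, where 59.8% and 56.3% of all genes compared were above 0. A further 11.6% and 7.13% of all genes were exactly equal. Counts around 0 depend on array scaling: the medians over all genes, 0.036 and 0.023, became -0.013 and -0.003 after quantile normalization. The upstream list was chosen with earlier results of these data known, so these counts are no independent support. Malt1, the paracaspase that carries the antigen receptor signal to the IkB kinases, had intensities of 1963 with medium, 2943 with IL-21 and 3568 under IL-6 plus TGFb1, and differences of 0.58 and 0.86. Map3k8, which encodes the kinase Tpl2, had intensities of 782, 1328 and 1184 in the same order, and differences of 0.76 and 0.60. Malt1 and Map3k8 were both lowest on the medium array. After quantile normalization the differences of Map3k8 were 0.66 and 0.52. Map3k14, which encodes the kinase NIK of the alternative route, had differences of 0.22 and 0.34, which were 0.11 and 0.26 after quantile normalization. Birc2, a ubiquitin ligase gene of the TNF receptor complex, had differences of 0.34 and 0.23, but a second, dimmer probe set had 0.07 and 0.18. Between the treated arrays the dimmer probe set of Birc2 had -0.11 in place of 0.11, so no order of these arrays is given for it. Ikbkb and Ikbkg, which encode the beta and gamma subunits of the IkB kinase complex, had differences of 0.11 and 0.22 with IL-21. Between the treated arrays the largest differences of the list were those of Malt1 (-0.28), the ubiquitin ligase gene Traf6 (-0.23) and Map3k8 (0.16).

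Negative regulators of the pathway included 1 gene past 2-fold, Tnip3. Its protein, ABIN-3, is related to the A20-binding inhibitors of NF-kB. Its intensity was 718 with medium, 1498 with IL-21 and 943 under IL-6 plus TGFb1. The IL-21 array was clearly the highest, with a difference from medium of 1.06, against 0.39 under IL-6 plus TGFb1, and a direct difference of 0.67 between the treated arrays. The IL-21 difference was 0.97 after quantile normalization, which is short of 2-fold. Of the 11 genes of the list, 1 was 2-fold higher and 0 were 2-fold lower with IL-21, and 0 were 2-fold apart in the other comparisons. Over all genes compared the shares were 0.482% higher and 0.109% lower with IL-21, so that 1 gene is all the count rests on. The shares were 0.673% and 0.364% under IL-6 plus TGFb1, and 0.464% either way between the treated arrays. The list median was 0.18 with IL-21 and 0.10 under IL-6 plus TGFb1. Tnip2, which encodes the related ABIN-2, had intensities of 445, 583 and 671 with medium, IL-21 and IL-6 with TGFb1. Its differences were 0.39 and 0.59, which were 0.27 and 0.51 after quantile normalization. Tnfaip3, which encodes the deubiquitinating enzyme A20 and is itself an NF-kB target, had differences of 0.18 and 0.05. Otulin, which encodes an enzyme that removes linear ubiquitin chains, was on the lower side, with intensities of 2456, 1756 and 1883 and differences of -0.48 and -0.38. Between the treated arrays the next differences after Tnip3 were those of Tnip2 (-0.20) and the RNase gene Zc3h12a (0.15).

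**Figure D4:**
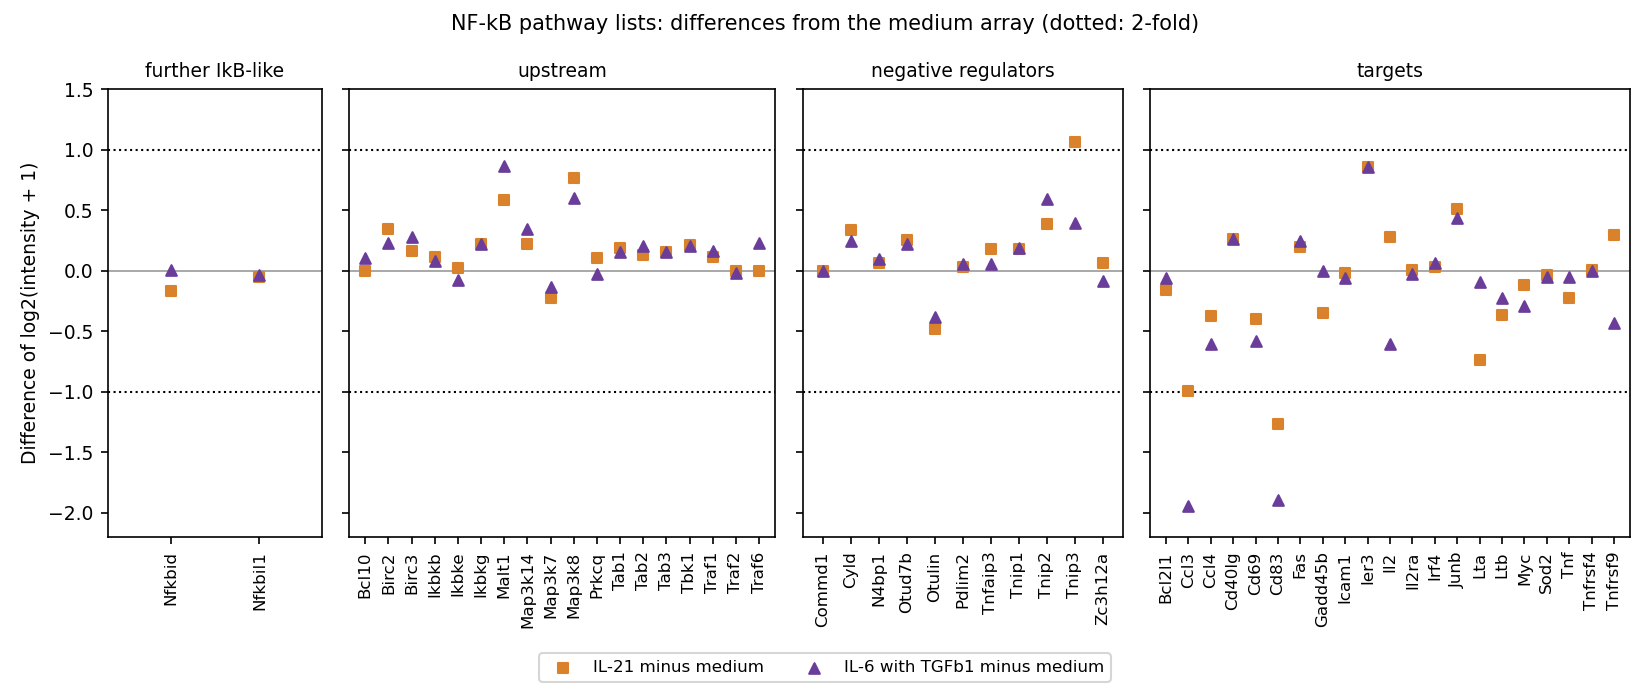
Differences from medium in log2(intensity + 1) (vertical axis) for the compared genes of 4 NF-kB pathway lists. Squares stand for the IL-21 array and triangles for the array of IL-6 plus TGFb1. Dotted lines mark 2-fold. Tnip3 lies above the upper line with IL-21, Cd83 lies below the lower line in both cultures, and Ccl3 lies below it under IL-6 plus TGFb1 and at it with IL-21.

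Known NF-kB target genes were listed as readouts, with 24 genes measured and 21 compared. Csf2, Icosl and Vcam1 were below the brightness limit on all arrays. With IL-21, 0 were 2-fold higher and 1 was 2-fold lower, and under IL-6 plus TGFb1 0 were higher and 2 were lower, beside the shares of all genes given above. The genes past 2-fold were Cd83 and Ccl3, which were known from earlier results of these data when the list was chosen. The list median was -0.03 with IL-21 and -0.06 under IL-6 plus TGFb1, beside 0.04 and 0.02 over all genes compared. With IL-21 12 of 21 genes were below 0, and under IL-6 plus TGFb1 15 of 21. Of all genes compared, 28.6% and 36.6% were below 0, and 11.6% and 7.13% were exactly equal. As for the upstream genes, these shares depend on array scaling, with medians over all genes of -0.013 and -0.003 after quantile normalization. The target list was chosen with earlier results of these data known, so these counts are no independent support. Cd83, which encodes a surface protein of activated lymphocytes and dendritic cells, had intensities of 788 with medium, 327 with IL-21 and 211 under IL-6 plus TGFb1, and differences of -1.27 and -1.90. Ccl3, a chemokine gene, had intensities of 4915, 2465 and 1277, and was 1.99-fold lower with IL-21 and 3.85-fold lower under IL-6 plus TGFb1 (-1.94). The first fell just short of the limit and passed it after quantile normalization, at -1.01. In both genes medium was highest and IL-6 with TGFb1 lowest. Ier3, a stress-induced early response gene, went the other way, with an intensity of 166 with medium and 301 on each treated array (0.86), and its medium value was below the brightness limit. The receptor gene Il2ra, at 10172 with medium, 10217 with IL-21 and 9953 under IL-6 plus TGFb1, differed by at most 0.04 in any comparison.

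Il2 is a growth factor gene that c-Rel activates. Its intensity was 2445 with medium, 2963 with IL-21 and 1604 under IL-6 plus TGFb1, with differences from medium of 0.28 and -0.61 and a direct difference of 0.88. Tnfrsf9, which encodes the costimulatory receptor 4-1BB, had intensities of 2269, 2779.7 and 1682, and a direct difference of 0.72. Both were highest with IL-21 and lowest under IL-6 plus TGFb1. Any relation of these differences to Rel was not tested, and c-Rel activity was not measured. At 1.5-fold, 5 of the 21 targets were apart between the treated arrays, against 1.45% of all genes compared. They were Ccl3 (0.95), Il2, Tnfrsf9, Cd83 (0.63) and Lta (-0.65), which encodes lymphotoxin alpha, and Lta was named after its values were seen. The list was chosen with earlier results of these data known, among them Ccl3 and Cd83, so this count is no independent support. At the same 1.5-fold limit 0 of the 9 family members were apart between the treated arrays, a count near the background.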

How the data were processed

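The deposited values are intensities, 1 per probe set and array (28815 probe sets). An Affymetrix whole-transcript kit was used for fragmentation and biotin labelling, and a company did the hybridization, per the labels' protocols. The summarization and normalization are not given in the sources used here, and the scale was read from the values. Per the submitters' processing notes the build was mm8, and no coordinates of the arrays were used. The platform annotation named the probe sets: 21780 had 1 symbol, 1605 several and 5430 none listed. The probe set with the highest mean stood for a gene. No normalization was added, and values were analysed as log2(intensity + 1), where the pseudocount shrinks differences of dim genes a little. The number of arrays, 1 per culture, limits the precision, so genes were counted by size alone (2-fold). The calculation was tested on simulated data. Promoter sequences are RefSeq's, and proteins were not used here.

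The members and lists were chosen with earlier results of these data known, among them the differences of Bcl3, Cd83 and Ccl3, which are no independent support. Named genes were all members, the further IkB-like genes, genes of the other lists past 2-fold or among the 3 largest differences in a comparison, and the 5 genes nearest to Bcl3. Beyond this rule Ikbkb, Ikbkg, Tnfaip3, Il2ra and Lta were named after their values were seen. The alternatives were a pseudocount of 16, low values raised to the 20th percentile, quantile normalization, centring on the array median, no brightness filter or one at the 75th percentile, other probe set choices and a 1.5-fold limit. The scripts used Python 3.11.15, pandas 2.3.3 and numpy 2.4.6.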

Additional observations from a re-analysis of the deposited data

How the results depend on the processing

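Bcl3 stayed past 2-fold against medium under every alternative that refitted its value, between 1.05 and 1.18 with IL-21 and between 1.08 and 1.14 with IL-6 and TGFb1. Rel stayed between -0.50 and -0.40 with IL-21 and between -0.49 and -0.47 with IL-6 and TGFb1. The count of family members past 2-fold, or past 1.5-fold, did not change in any comparison. Quantile normalization moved the family's median difference in IL-21 minus medium to -0.11, the count of negative regulators past 2-fold in that comparison to 0 and that of targets to 2. With a 1.5-fold limit, the counts with IL-21 were 1 of 18 upstream genes and 4 of 21 targets, beside 2.54% of all genes. With IL-6 and TGFb1 they were 2 of 18 upstream genes, 1 of 11 negative regulators and 5 of 21 targets, beside 3.61%. Between the treated arrays they were 1 of 11 negative regulators and 5 of 21 targets, beside 1.45%. The cause of these shifts was not tested. The lists were chosen with earlier results of these data known, so the list counts are no independent support. After quantile normalization the differences of Map3k8 and Tnip2 with IL-6 and TGFb1 were 0.52 and 0.51, which are short of 1.5-fold. With the filter at the 75th percentile, 6 of the 9 members were compared. No paired analysis was possible because each culture has 1 array. Each member has 1 probe set, so the alternatives on probe set choice could not alter its value.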

Other observations

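Some pathway genes carried exactly the same deposited intensity on different arrays. Of the 52 compared genes of the pathway lists, Traf2, Traf6 and Commd1 were equal on the medium and IL-21 arrays, Gadd45b and Commd1 on the arrays of medium and of IL-6 with TGFb1, and Ikbkg, Tab3, Cd40lg, Ier3 and Commd1 on the treated arrays. Among all genes compared the share of equal values was 11.6%, 7.13% and 13.0% in these pairs. None of the 9 family members had an equal pair. These genes were named for their equal values.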
